A study of Mus musculus with 6 samples.

Results

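Toll-like receptors are the pattern receptors by which innate immune cells sense microbial products and molecules released by damaged tissue. Transcripts of 9 of them, Tlr1, Tlr2, Tlr3, Tlr4, Tlr6, Tlr7, Tlr8, Tlr9 and Tlr13, and of Myd88, the adaptor that most of these receptors signal through, were followed in mouse tumors after photodynamic therapy. The 10 genes were taken by their symbols from the 21899 genes listed in the deposited expression table. All 10 had a mean of at least 1 FPKM (fragments per kilobase of exon, scaled to library size) over the 6 tumor samples and were therefore among the 10853 genes tested. Lewis lung carcinoma cells (LLC-luc, a mouse lung tumor line that carries luciferase) had been injected subcutaneously into male C57BL/6 mice, which keep their own immune system. The Laser group, the control here, was irradiated at 620 nm for 10 min and, by the study's methods, was given saline. The PC-La group was injected every 5 days with C-phycocyanin (PC), a light-absorbing protein of blue-green algae used as the photosensitizer, with irradiation 4 h later. The SePC-La group was given a phycocyanin enriched in selenium (SePC) in its place. By the study's methods the injections were placed beneath the tumors. The wavelength and the injection interval are those of the labels, and the study's methods give others. Each group had 2 samples, and all 3 groups shared the tumor line, the host strain and the laser.

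Surface receptors of this family (Tlr1, Tlr2, Tlr4 and Tlr6 here) bind lipopeptides and lipopolysaccharide, whereas the endosomal members (Tlr3, Tlr7, Tlr8, Tlr9 and Tlr13) bind nucleic acids. Most of them recruit Myd88, which assembles Irak kinases and Traf6 and leads to NF-kB activation and cytokine transcription, while Tlr3 signals through Ticam1 instead. In tumors these receptors are carried mainly by macrophages, dendritic cells, neutrophils and lymphocytes, and in part by the tumor cells. In a bulk sample, fewer cells of a type and less RNA per cell cannot be told apart.

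Promoter sequences are shown for Tlr3, Tlr9, Tlr2 and Tlr8, the 4 genes with an unadjusted p under 0.05 between the SePC-La and PC-La groups, so that their start regions can be read beside their levels. Each line gives, 5' to 3' on the gene's strand, the 250 bases before the transcript start in the RefSeq promoter table (GRCm38.p6), and capitals mark matches, on either strand, to 5 short motifs. The intervals were chr8:45410381-45410630 (minus strand) for Tlr3, chr9:106222348-106222597 (plus strand) for Tlr9, chr3:83841609-83841858 (minus strand) for Tlr2 and chrX:167264330-167264579 (minus strand) for Tlr8.
Tlr3: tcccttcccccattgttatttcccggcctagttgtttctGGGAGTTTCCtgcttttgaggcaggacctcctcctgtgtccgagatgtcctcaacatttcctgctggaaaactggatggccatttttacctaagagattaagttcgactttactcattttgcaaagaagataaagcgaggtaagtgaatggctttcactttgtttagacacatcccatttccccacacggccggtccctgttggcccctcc
Tlr9: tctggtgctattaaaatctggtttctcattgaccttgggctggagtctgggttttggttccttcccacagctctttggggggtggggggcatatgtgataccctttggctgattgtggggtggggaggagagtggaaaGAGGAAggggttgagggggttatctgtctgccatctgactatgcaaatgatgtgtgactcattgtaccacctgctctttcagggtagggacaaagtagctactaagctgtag
Tlr2: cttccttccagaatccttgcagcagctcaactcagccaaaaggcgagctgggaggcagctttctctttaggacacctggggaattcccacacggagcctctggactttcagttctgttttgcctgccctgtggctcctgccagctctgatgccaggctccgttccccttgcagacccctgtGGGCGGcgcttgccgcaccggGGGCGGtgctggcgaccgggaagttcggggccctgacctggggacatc
Tlr8: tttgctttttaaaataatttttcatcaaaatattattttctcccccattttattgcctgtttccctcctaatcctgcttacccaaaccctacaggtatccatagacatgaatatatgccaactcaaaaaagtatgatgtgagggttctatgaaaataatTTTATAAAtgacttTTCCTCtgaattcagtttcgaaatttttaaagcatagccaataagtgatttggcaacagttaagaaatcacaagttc
The motifs searched over 300 bases (250 before to 50 after the start) were the core of the interferon-stimulated response element (GAAA and GAAA with any 2 bases between them), an NF-kB-type site (GGG and TTTCC with any 2 bases between them), the purine box GAGGAA of the type bound by PU.1, the TATA box core TATAAA and the GC box GGGCGG. Of the 32851 promoters in the table, 3.44% held the interferon-stimulated core, 1.63% the NF-kB-type site, 28.3% the purine box, 13.6% the TATA core and 35.7% the GC box. The Tlr3 window held an NF-kB-type match that began 211 bases before the start and a GC box 37 bases after it. The Tlr9 window held purine boxes 112 bases before and 12 bases after the start. The Tlr2 window held GC boxes 69 and 48 bases before the start. Only 1 spelling of an NF-kB-type site was searched, so sites spelled otherwise, in this or any other window, were neither marked nor counted. The Tlr8 window held a purine box 77 bases before the start and TATA cores, overlapping each other, 91 and 89 bases before it. None of the 5 motifs was found in all 4 windows. The windows also differed in CpG content, with 10 CpG dinucleotides for Tlr3, 11 for Tlr2, 1 for Tlr8 and 0 for Tlr9, against a median of 7 over the table. Among the other genes with an entry (Tlr1, Tlr6, Tlr13 and Myd88), the interferon-stimulated core was matched before 1 of the 2 Tlr6 starts, at 116 and 110 bases, and before the Myd88 start, at 40 bases. Tlr4 and Tlr7 had no entry. Such matches are descriptions of the letters and are not evidence that a factor was bound.

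The 6 libraries held 14447795 to 17649495 gene-assigned reads, as recovered from the FPKM values. The 10 genes rested on 62 reads (Tlr6 in Laser replicate 2) to 1244 reads (Tlr4 in Laser replicate 2), so that the lower genes carry the larger counting error. The labels call the samples lung cancer tissue. Markers of differentiated lung epithelium were at or near 0 (Scgb1a1 and Nkx2-1 at 0 in all 6 samples, Sftpc at most 0.369 FPKM, Epcam at most 0.129 FPKM, Cdh1 at most 1.17 FPKM), and the mesenchymal filament gene Vim was at 742 to 1000 FPKM. Libraries did not always resemble their own group most. The correlation of log2 values between the 2 Laser samples was 0.947, while Laser replicate 1 correlated at 0.986 and 0.983 with the PC-La samples, and SePC-La replicate 2 correlated at 0.975 with Laser replicate 1 and at 0.972 with SePC-La replicate 1. The summed level of 4 skeletal muscle markers was 107 FPKM in Laser replicate 2, 14.7 FPKM in Laser replicate 1 and 0.0437 to 3.63 FPKM in the treated samples. Nothing in the labels says that the 2 samples of a group came from separate animals, so p-values measure the spread between these samples only.

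Myd88 had the highest level of the 10 genes in each group, and its samples did not overlap in level with those of the next gene. FPKM is scaled by length, so levels can be set side by side between genes. In the Laser group Tlr4 came next at 11.1 ± 2.31 FPKM (SD), followed by Tlr13, Tlr2, Tlr8, Tlr7, Tlr1, Tlr3, Tlr6 and Tlr9, the lowest at 1.38 ± 0.356 FPKM. All neighbours in that order had overlapping samples except Myd88 with Tlr4 and Tlr2 with Tlr8. In the PC-La group Tlr2 stood second at 13.0 ± 1.40 FPKM, apart from Tlr13 and Tlr4 below it, and Tlr6 was lowest. In the SePC-La group Tlr13, Tlr2 and Tlr4 had overlapping samples and means of 8.11, 7.62 and 7.31 FPKM, and Tlr9 was lowest at 1.28 ± 0.336 FPKM. All 3 groups therefore had Myd88 first and Tlr2, Tlr4 and Tlr13 in the next 3 places.

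**Figure D1:**
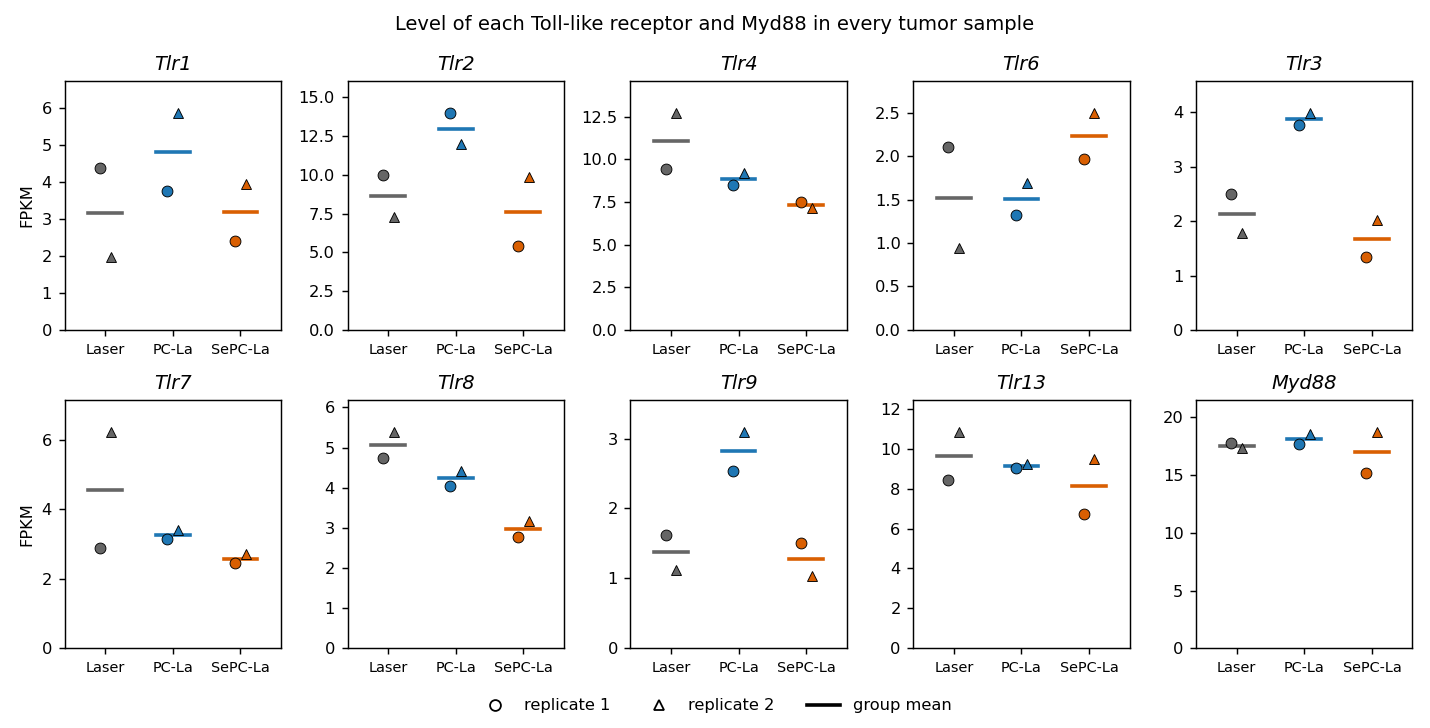
FPKM of each of the 10 genes (vertical axis, from 0, scaled per gene) in the Laser, PC-La and SePC-La samples, with circles for replicate 1, triangles for replicate 2 and lines for group means. Tlr3 and Tlr9 were highest in both PC-La samples, Tlr8 was lowest in both SePC-La samples, and Myd88 lay between 15.2 and 18.7 FPKM throughout.

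Among the surface receptors, Tlr2, which senses bacterial lipopeptides as a dimer with Tlr1 or Tlr6, was higher in both PC-La samples than in any other sample. Its levels were 9.98 and 7.26 FPKM in the Laser samples, 13.9 and 12.0 FPKM in the PC-La samples, and 5.42 and 9.82 FPKM in the SePC-La samples. The PC-La samples did not overlap with either other group, whereas the Laser and SePC-La samples overlapped. Tlr1, a partner of Tlr2 in the recognition of triacylated lipopeptides, was at 4.37 and 1.96 FPKM with laser alone, at 3.77 and 5.85 FPKM after PC and at 2.40 and 3.95 FPKM after SePC. Its samples overlapped in every comparison. Tlr6, the partner of Tlr2 for diacylated lipopeptides, was at 2.10 and 0.943 FPKM in the Laser samples, at 1.32 and 1.69 FPKM in the PC-La samples and at 1.97 and 2.49 FPKM in the SePC-La samples. Both SePC-La samples were above both PC-La samples for Tlr6, and the Laser samples spanned the PC-La values. Tlr1 and Tlr6 are neighbouring genes of related sequence on chromosome 5 (GENCODE M21, GRCm38, 64924679 to 64933563 and 64952031 to 64960097, both on the minus strand), so that reads may be shared between them and their separate values are uncertain.

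Tlr4, the receptor for lipopolysaccharide, stood highest in the Laser group, then in the PC-La group, and lowest in the SePC-La group. It was at 9.42 and 12.7 FPKM in the Laser samples, 8.48 and 9.19 FPKM in the PC-La samples, and 7.50 and 7.12 FPKM in the SePC-La samples. No 2 groups overlapped for Tlr4, although the lower Laser sample lay close to the higher PC-La sample.

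Of the endosomal receptors, Tlr3 and Tlr9 were highest after PC. Tlr3, which binds double-stranded RNA, was at 2.49 and 1.78 FPKM in the Laser samples, 3.76 and 3.98 FPKM in the PC-La samples, and 1.34 and 2.01 FPKM in the SePC-La samples. Tlr9, which binds DNA rich in unmethylated CpG, was at 1.63 and 1.12 FPKM with laser alone, 2.54 and 3.09 FPKM after PC, and 1.51 and 1.04 FPKM after SePC. For both genes the PC-La samples were above all 4 other samples, and the Laser and SePC-La samples overlapped. Tlr3 lies on chromosome 8 (45395665 to 45411080, minus strand) with 1 annotated antisense gene over it, and the strandedness of the libraries is not given in the sources used here, so reads of the pair could not be told apart.

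Tlr7 and Tlr8, neighbours on the X chromosome that sense single-stranded RNA and its breakdown products, were lowest after SePC. Tlr8 was at 4.74 and 5.39 FPKM in the Laser samples, 4.05 and 4.42 FPKM in the PC-La samples, and 2.78 and 3.18 FPKM in the SePC-La samples, with no overlap between any 2 groups. Tlr7 was at 2.88 and 6.22 FPKM in the Laser samples, 3.13 and 3.39 FPKM in the PC-La samples, and 2.44 and 2.71 FPKM in the SePC-La samples. The SePC-La samples were below all 4 others for Tlr7, but the Laser samples were far apart and spanned the PC-La values. Tlr13, a sensor of bacterial ribosomal RNA that humans lack, was at 8.44 and 10.8 FPKM, 9.01 and 9.25 FPKM, and 6.74 and 9.49 FPKM in the Laser, PC-La and SePC-La samples, and it overlapped in every comparison.

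Myd88 differed little between groups. It was at 17.7 and 17.3 FPKM in the Laser samples, 17.6 and 18.5 FPKM in the PC-La samples, and 15.2 and 18.7 FPKM in the SePC-La samples. The SePC-La pair spanned all 4 other samples. Myd88 lies on chromosome 9 (119335934 to 119341411, minus strand), where 2 other annotated genes overlap it.

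The first comparison asked what PC as photosensitizer added to irradiation. In the PC-La group 6 of these genes had a higher mean log2 level and 4 a lower one, beside 50.1% lower over all genes tested. Their median log2 fold change was 0.03, and that of all genes tested was -0.00062. The study's methods called a gene by an absolute log2 fold change over 1 with an unadjusted p under 0.05. That criterion was met by 0 of the 10 genes, and by 1.29% of all genes tested (140 genes). An unadjusted p under 0.05 at any size, in limma's moderated test on log2(FPKM + 1), was reached by 2 of the 10, Tlr9 and Tlr3, both higher, against 3.38% of all genes in that direction and 2.40% in the other. Tlr9 was higher by 0.69 ± 0.205 (log2, SE), and the ratio of its mean levels was 2.05. Tlr3 was higher by 0.64 ± 0.197, with a ratio of 1.81. Log2 fold changes on the log2(FPKM + 1) scale understate the change of genes as low as these. The Benjamini-Hochberg adjusted p of both genes was 0.753 in limma, and 0 of all genes tested had an adjusted p under 0.05, while 627 had an unadjusted p under 0.05. The count of adjusted calls was also 0 with limma voom on the recovered reads, and it was 312, with 0 of the 10 genes among them, when Laser replicate 1 was omitted.

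Tlr2 was higher by 0.55 ± 0.275 in the PC-La group, with a 95% interval of -0.12 to 1.21. Tlr1 was higher by 0.52 ± 0.352, with an interval of -0.34 to 1.38. Neither difference reached an unadjusted p of 0.05 in limma, and both intervals hold 0 and reach past 1. Tlr7, Tlr4, Tlr8 and Tlr13 were lower by log2 fold changes of -0.31, -0.28, -0.21 and -0.06, and Tlr6 and Myd88 were at 0.03 and 0.04. The interval for Myd88 was -0.29 to 0.37. Both PC-La samples were above both Laser samples for 3 of the 10 genes (Tlr2, Tlr3 and Tlr9) and below them for 2 (Tlr4 and Tlr8), shares that can be read against 20.4% and 21.6% of all genes tested.

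The difference in Tlr3 lost its unadjusted p under 0.05 when Laser replicate 2, PC-La replicate 1 or PC-La replicate 2 was left out, with log2 fold changes of 0.48 to 0.81 over the 4 omissions. The difference in Tlr9 lost it without PC-La replicate 2, at 0.53 to 0.84 over the 4 omissions. The Laser samples also set the values of other genes. Tlr7 was at -0.76 without Laser replicate 1 (unadjusted p under 0.05) and at 0.13 without Laser replicate 2. Tlr1 was at 0.95 (unadjusted p under 0.05) and 0.089, and Tlr4 at -0.48 (unadjusted p under 0.05) and -0.085, in the same omissions. Tlr2 ranged from 0.34 to 0.75 and had an unadjusted p under 0.05 when only the 4 samples compared were fitted. Summed macrophage markers (10 of 10 above 1 FPKM on average) were 679 and 730 FPKM in the Laser samples and 922 and 981 FPKM in the PC-La samples. C1qa, C1qb and C1qc held most of these sums, and the other 7 markers summed to 166 and 189 FPKM in the Laser samples and 160 and 170 FPKM in the PC-La samples. Summed fibroblast markers were 526 and 68.9 FPKM against 819 and 693 FPKM, and summed erythroid markers were 127 and 13.6 FPKM against 263 and 361 FPKM, in the Laser and PC-La samples. Of 4 markers of leukocytes in general, Ptprc, Coro1a and Laptm5 were each higher in the PC-La samples without overlap, as were 20.4% of all genes tested. They summed to 79.5 and 53.6 FPKM in the Laser samples and 104 and 117 FPKM in the PC-La samples. The other, Itgb2, overlapped, at 62.2 and 99.5 FPKM against 55.3 and 72.3 FPKM. The part of all these shifts in the differences of Tlr2, Tlr3 and Tlr9 was not tested.

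**Figure D2:**
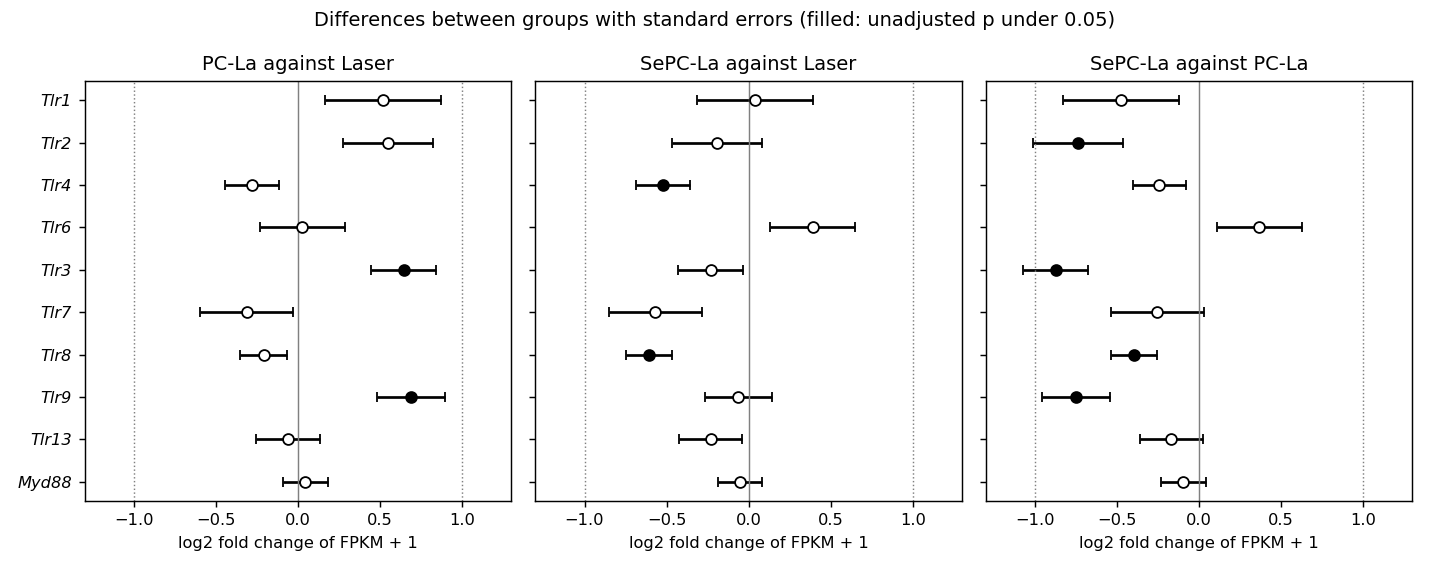
Log2 fold change of FPKM + 1 (horizontal axis) of the 10 genes in the 3 comparisons, with bars for 1 standard error, filled points for an unadjusted p under 0.05 and dotted lines at the study's limits of -1 and 1. No point lies beyond the dotted lines, and 8 points are filled, from -0.87 (Tlr3, SePC-La against PC-La) to 0.69 (Tlr9, PC-La against Laser).

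The second comparison asked the same of SePC, with the same 2 Laser samples as control. After SePC 8 of the 10 were lower and 2 higher, where 59.8% of all genes tested were lower. The median of the 10 log2 fold changes was -0.21, and that of all genes tested was -0.065. The study's criterion was again met by 0 of the 10, and by 0.682% of all genes (74 genes). Tlr8 and Tlr4 had an unadjusted p under 0.05, both lower, against 7.24% of all genes tested in that direction and 4.90% in the other. Tlr8 was lower by a log2 fold change of -0.61 ± 0.142 (SE), with a ratio of means of 0.589. Tlr4 was lower by -0.52 ± 0.164, with a ratio of 0.661. The Benjamini-Hochberg adjusted p in limma was 0.376 for both, and it was under 0.05 for 0 of all genes tested, while 1318 genes had an unadjusted p under 0.05 and limma voom on the recovered reads also gave 0 adjusted calls. Omitting Laser replicate 1 gave 97 adjusted calls and omitting SePC-La replicate 2 gave 1, with 0 of the 10 genes in either case.

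The share of higher genes among all genes at an unadjusted p under 0.05 was 40.4% as measured, 60.2% after median-ratio scaling of the samples and 53.3% after quantile normalization. Tlr8 and Tlr4 stayed lower with an unadjusted p under 0.05 under both scalings, whereas Myd88 and Tlr9, at -0.05 and -0.06, changed sign under 1 scaling each. Tlr7 was lower by -0.57 ± 0.285, with an interval of -1.26 to 0.12. Tlr6 was higher by 0.39 ± 0.260, with an interval of -0.23 to 1.02, and was at 0.73 with an unadjusted p under 0.05 without Laser replicate 1. The remaining genes were at -0.23 (Tlr3), -0.23 (Tlr13), -0.19 (Tlr2) and 0.04 (Tlr1). All 5 endosomal receptors were lower in mean level than with laser alone, where 59.8% of all genes tested were lower. They include Tlr9, which changed sign under 1 scaling. Of the 5, 1 had an unadjusted p under 0.05, beside 7.24% of all genes tested that were lower with such a p. Both SePC-La samples were below both Laser samples for 3 of the 10 genes (Tlr4, Tlr7 and Tlr8) and above them for 0, beside 25.6% and 15.0% of all genes tested.

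Tlr8 kept its unadjusted p under 0.05 with each of the 4 samples left out, at log2 fold changes of -0.68 to -0.53. Tlr4 lost it without Laser replicate 2 (log2 fold change -0.33) and without SePC-La replicate 2. Tlr7 met the study's criterion only without Laser replicate 1, at -1.01 (adjusted p = 0.0713 in limma), and was at -0.12 without Laser replicate 2. The level of Tlr7 in Laser replicate 2 stood with the muscle markers given above, whose part in the result was not tested. Without SePC-La replicate 2, the median of the 10 genes was -0.43.

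The third comparison set the photosensitizers against each other, both with irradiation. After SePC 9 of the 10 were lower than after PC and 1 was higher, where 58.5% of all genes tested were lower. The median of the 10 log2 fold changes was -0.33, and that of all genes tested was -0.074. On the log2(FPKM + 1) scale the study's criterion was met by 0 of the 10, and by 2.98% of all genes (323 genes). An unadjusted p under 0.05 was found for 4 of the 10, all lower, against 14.4% of all genes tested in that direction and 9.91% in the other. The share of higher genes among all genes at that p was 40.8% as measured, 53.6% after median-ratio scaling and 52.1% after quantile normalization, and 9 of the 10 genes stayed lower under each scaling.

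Tlr3 was lower by -0.87 ± 0.197 (SE), with a ratio of means of 0.434. Tlr9 was lower by -0.75 ± 0.205, with a ratio of 0.453. The log2(FPKM + 1) scale understates the change of genes as low as these. Both met the study's criterion with a pseudocount of 0.1, as did 488 of all genes, and with limma voom, as did 474. Tlr2 was lower by -0.74 ± 0.275, and Tlr8 by -0.40 ± 0.142. These are the genes whose promoters are printed above. Of the 4, 3 are endosomal receptors, as are 5 of the 10 genes followed. Their Benjamini-Hochberg adjusted p-values in limma were 0.126 (Tlr3), 0.134 (Tlr9), 0.172 (Tlr8) and 0.182 (Tlr2). The smallest adjusted p of any gene was 0.0649, so that 0 genes passed 0.05, while 2637 had an unadjusted p under 0.05 and limma voom also gave 0 adjusted calls. When only these 4 samples were fitted, Tlr3 had an adjusted p of 0.0495 and 637 genes passed. The adjusted calls numbered 8 after quantile normalization, 3 with a minimum mean of 5 FPKM and 1 without SePC-La replicate 2, with 0 of the 10 genes in each.

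Tlr1 was lower by -0.48 ± 0.352, with an interval of -1.34 to 0.38, and Tlr7, Tlr4 and Tlr13 by -0.25, -0.24 and -0.17. Tlr6 alone was higher, by 0.37 ± 0.260 with an interval of -0.26 to 0.99, and at 0.60 with an unadjusted p under 0.05 after quantile normalization. Myd88 was at -0.10 ± 0.137, with an interval of -0.42 to 0.23. Both SePC-La samples were below both PC-La samples for 6 of the 10 genes (Tlr2, Tlr3, Tlr4, Tlr7, Tlr8 and Tlr9) and above them for 1 (Tlr6), beside 39.5% and 26.0% of all genes tested.

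Tlr3 kept its unadjusted p under 0.05 with each of the 4 samples left out, at -1.06 to -0.69. Tlr9 lost it without PC-La replicate 2 and without SePC-La replicate 2. Tlr2 lost it without either PC-La sample and without SePC-La replicate 1, where its log2 fold change was -0.36, and it stood at -1.12 without SePC-La replicate 2. Tlr8 lost it in the same 3 omissions, after median-ratio scaling, after quantile normalization and with limma voom. Summed macrophage markers were 406 and 760 FPKM in the SePC-La samples against 922 and 981 FPKM in the PC-La samples. Without C1qa, C1qb and C1qc the sums were 126 and 203 FPKM against 160 and 170 FPKM, which overlap. Summed erythroid markers were 613 and 932 FPKM against 263 and 361 FPKM, and summed fibroblast markers were 44.5 and 235 FPKM against 819 and 693 FPKM. The summed markers of leukocytes in general were 143 and 170 FPKM against 159 and 189 FPKM. Of these 4 genes, Itgb2 was higher in both SePC-La samples (80.7 and 78.0 FPKM against 55.3 and 72.3 FPKM), while Ptprc, Coro1a and Laptm5 were each lower without overlap and summed to 62.4 and 92.0 FPKM against 104 and 117 FPKM. Whether these shifts had a part in the receptor differences was not tested.

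**Figure D3:**
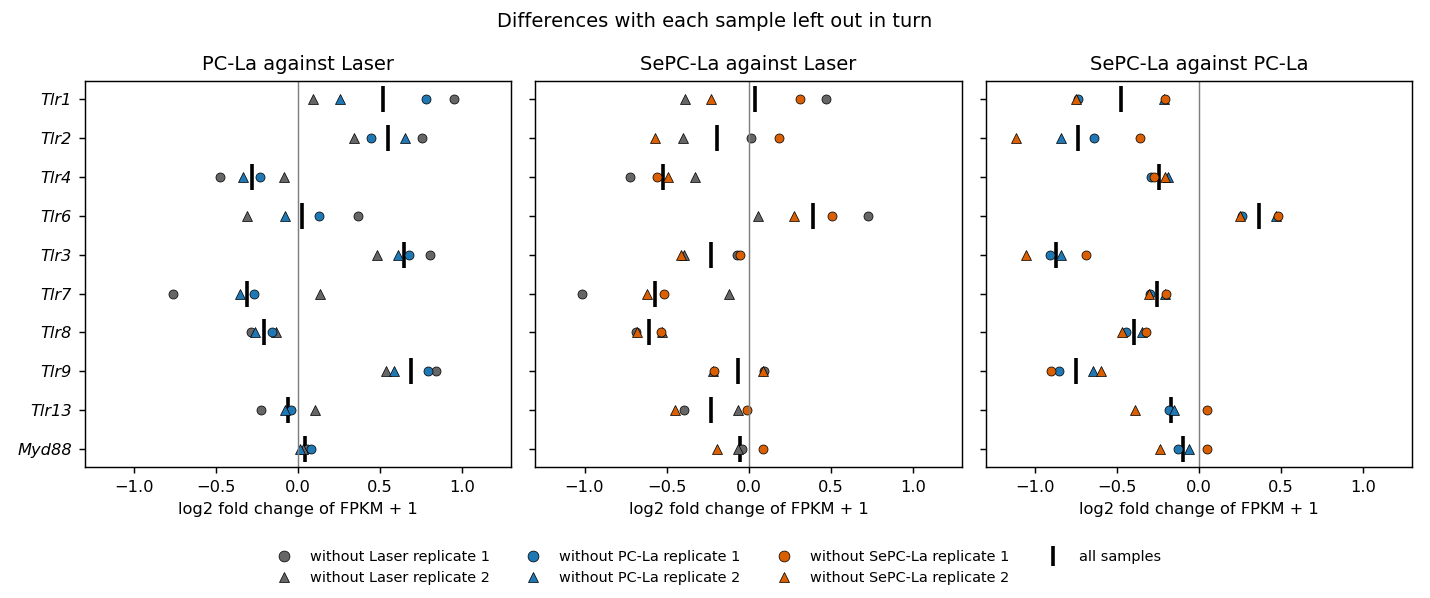
Log2 fold change of FPKM + 1 (horizontal axis) of the 10 genes with each sample left out in turn (circles for replicate 1, triangles for replicate 2, colored by the group of the omitted sample) and with all samples (black bars). Tlr7 against Laser ranges from -1.01 to -0.12 in the SePC-La comparison, while Tlr8 stays between -0.68 and -0.53.

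The receptors that mark particular leukocytes can be set beside the markers of those cells. Tlr9 and Tlr7 are known from B cells and plasmacytoid dendritic cells. All 4 B cell markers were below 1 FPKM on average, with sums of 0.239 to 1.33 FPKM, and no marker of any list was at 0 in all 6 samples. Summed plasmacytoid dendritic cell markers were 1.70 and 4.84 FPKM in the Laser samples, 0.562 and 1.92 FPKM in the PC-La samples, and 1.29 and 1.10 FPKM in the SePC-La samples, with 3 of 4 markers below 1 FPKM on average. Over 0.5 of that sum was Cox6a2, a gene that striated muscle also expresses, in 5 of the 6 samples, and the other 3 markers summed to 0.674 and 0.011 FPKM, 0.280 and 1.33 FPKM, and 0.068 and 0.421 FPKM in the same order. Neutrophil markers (8 of 9 above 1 FPKM on average, all but Ly6g) summed to 353 and 478 FPKM in the SePC-La samples, above 171 and 47.8 FPKM in the Laser samples and 161 and 95.5 FPKM in the PC-La samples. S100a9 alone held 226 and 300 FPKM of the SePC-La sums, and S100a8 61.8 and 82.7 FPKM. All 8 tested markers had a higher mean log2 level in the SePC-La group than in either other group, but the samples of Mmp9 overlapped in every comparison. The 10 genes together summed to 63.8 and 65.5 FPKM, 67.6 and 71.4 FPKM, and 47.3 and 60.5 FPKM in the Laser, PC-La and SePC-La samples. The summed level of the 10 genes, as measured, was thus lowest in both SePC-La samples, where the neutrophil sum was highest. Median-ratio size factors were 0.988 in SePC-La replicate 2 and 1.03 in Laser replicate 1. The gap between these 2 samples (60.5 and 63.8 FPKM) is of the size of that scaling. Whether the 2 sums are linked was not tested.

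**Figure D4:**
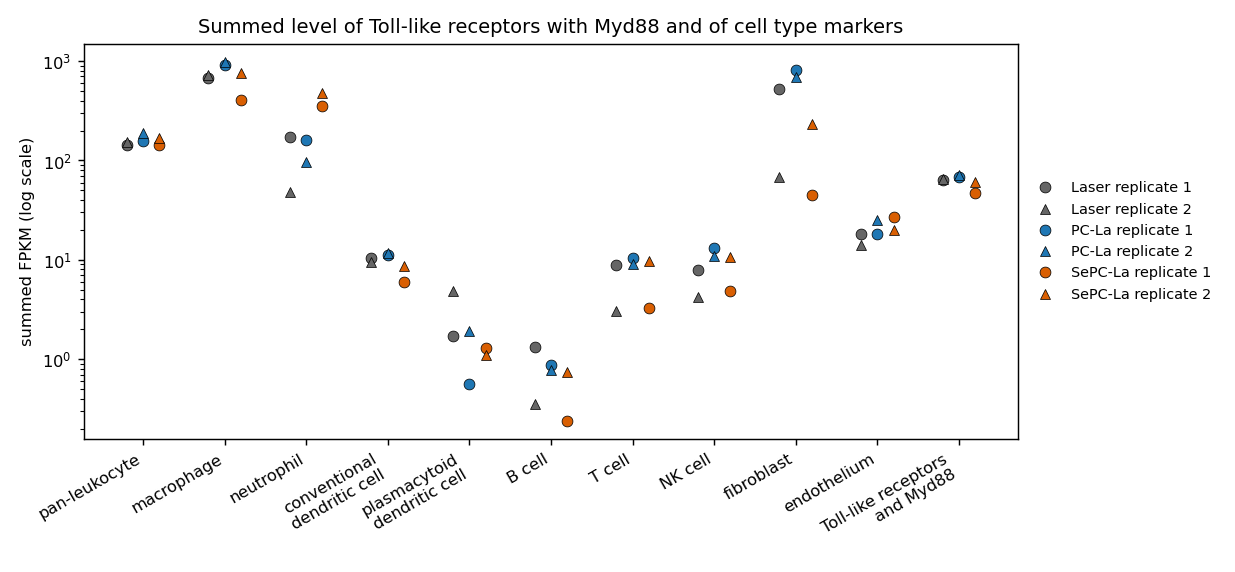
Summed FPKM (vertical axis, log scale) of cell type marker lists and of the 10 genes in each of the 6 samples, with circles for replicate 1 and triangles for replicate 2. The neutrophil sum was highest in both SePC-La samples (353 and 478 FPKM, most of it S100a9), and the macrophage sum, most of it C1qa, C1qb and C1qc, in both PC-La samples (922 and 981 FPKM).

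Of the other mouse receptors of the family, Tlr5 and Tlr11 were below 1 FPKM on average. Tlr12, a profilin sensor, passed that filter through its PC-La samples. Its levels were 0.921 and 0.107 FPKM in the Laser samples, 1.79 and 3.41 FPKM in the PC-La samples, and 0.349 and 0.685 FPKM in the SePC-La samples, from 6 to 162 reads. Tlr12 met the study's criterion in the PC-La group against Laser (log2 fold change 1.27 ± 0.350, adjusted p = 0.705 in limma) and against the SePC-La group, which was lower by -1.22 ± 0.350 (adjusted p = 0.138). Since it passed the filter through the group in which it was high, these values are a description.

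Outside the receptors and Myd88, 81 of 94 listed pathway genes were tested. The study's criterion was met by 4 higher and 0 lower in the PC-La group against Laser, by 5 higher and 0 lower in the SePC-La group against Laser, and by 6 higher and 4 lower between the SePC-La and PC-La groups. At an unadjusted p under 0.05 the counts were 11 higher and 2 lower, 15 higher and 1 lower, and 19 higher and 9 lower in the same order. Over all genes tested, the shares with such a p were 3.38% higher and 2.40% lower, 4.90% and 7.24%, and 9.91% and 14.4%, and the criterion was met in either direction by 1.29%, 0.682% and 2.98%. Adjusted p-values in limma were over 0.05 for all 81. The accounts of these groups that follow give values and counts and no test of a group as a whole.

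The accessory proteins of the receptors (8 of 9 tested) included 3 genes that, like Tlr3 and Tlr9, were highest in both PC-La samples. Unc93b1, which escorts the nucleic acid receptors to endosomes, was at 28.6 and 25.6 FPKM in the Laser samples, 39.5 and 47.2 FPKM in the PC-La samples, and 19.0 and 29.0 FPKM in the SePC-La samples. It was higher by 0.66 ± 0.211 in the PC-La group against Laser and lower by -0.85 ± 0.211 in the SePC-La group against PC-La, both with an unadjusted p under 0.05. Ly86, which pairs with the receptor-like protein Cd180 at the surface of B cells and macrophages, met the study's criterion in both comparisons, at 1.23 ± 0.283 and -1.54 ± 0.283, and Cd180 was at 0.61 and -0.66 with an unadjusted p under 0.05 in each. The PC-La samples did not overlap with the other groups for any of the 3 genes. Of the 8 accessory genes, both PC-La samples were above both Laser samples for 4 and below them for 2, beside 20.4% and 21.6% of all genes tested. Both SePC-La samples were below both PC-La samples for 4 and above them for 2, beside 39.5% and 26.0% of all genes tested.

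Cd14, the co-receptor that hands lipopolysaccharide to Tlr4, had the opposite order. It was at 59.7 and 58.7 FPKM in the Laser samples, 45.2 and 40.7 FPKM in the PC-La samples, and 80.1 and 84.0 FPKM in the SePC-La samples, with no overlap between groups. It was higher by 0.92 ± 0.118 in the SePC-La group against PC-La (adjusted p = 0.0868 in limma) and by 0.46 ± 0.118 against Laser, and lower by -0.46 ± 0.118 in the PC-La group against Laser, each with an unadjusted p under 0.05. Cd36, a scavenger receptor that works with Tlr2, was at -0.62 and 0.81 in the PC-La group against Laser and the SePC-La group against PC-La, each with an unadjusted p under 0.05. Ly96, which binds lipopolysaccharide beside Tlr4, was at 0.24, 0.26 and 0.02 in the PC-La group against Laser, the SePC-La group against Laser and the SePC-La group against PC-La. Cd14 was thus highest in the group in which Tlr4 was lowest.

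Below the receptors, few of the adaptors and kinases had an unadjusted p under 0.05. The adaptors Tirap, which bridges Myd88 to the surface receptors, and Ticam1, which serves Tlr3, lay within -0.27 and 0.05 in the 3 comparisons, with no unadjusted p under 0.05, and Ticam2 and Sarm1 were below 1 FPKM. Of 16 kinases and ligases, all tested, 13 were lower in the SePC-La group against Laser, where 59.8% of all genes tested were. For 6 both SePC-La samples were below both Laser samples, beside 25.6% of all genes. Against Laser 0 had an unadjusted p under 0.05 in either group. Over all genes, 3.38% were higher and 2.40% lower with such a p after PC, and 4.90% and 7.24% after SePC. Between the SePC-La and PC-La groups 1 gene had such a p and was higher, beside 9.91% of all genes. That gene was Irak2, a kinase of the Myd88 complex, higher by 0.56 ± 0.198. Irak1, Irak4 and Traf6, the core of that complex, lay between -0.28 and 0.06 in all 3 comparisons.

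Of 11 transcription factors, all tested, 3 had an unadjusted p under 0.05 in the PC-La group against Laser, all of them higher interferon regulatory factors, which act downstream of endosomal receptors. Irf7 was at 8.05 and 6.75 FPKM in the Laser samples, 15.3 and 14.6 FPKM in the PC-La samples, and 8.96 and 9.65 FPKM in the SePC-La samples. It was higher in the PC-La group against Laser by 0.93 ± 0.136 (adjusted p = 0.406 in limma), and Irf5 and Irf8 were higher by 0.59 and 0.53. Against the PC-La group, Irf7 and Irf5 were lower in the SePC-La group by -0.63 and -0.62, all with an unadjusted p under 0.05. Relb, a subunit of NF-kB, was higher in the SePC-La group by 0.51 ± 0.136 against Laser and by 0.44 ± 0.136 against PC-La. Irf7 in the SePC-La group lay above Laser by 0.30, with an unadjusted p over 0.05.

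The negative regulators (13 of 13 tested) had 0 genes with an unadjusted p under 0.05 in the PC-La group against Laser, and 5 higher and 0 lower in each of the comparisons of the SePC-La group, where 4.90% (against Laser) and 9.91% (against PC-La) of all genes tested were higher with such a p. Nfkbia, the inhibitor that holds NF-kB in the cytoplasm and is itself an NF-kB target, was at 102 and 57.5 FPKM in the Laser samples, 58.4 and 62.5 FPKM in the PC-La samples, and 134 and 174 FPKM in the SePC-La samples. It was higher in the SePC-La group by 0.99 ± 0.279 against Laser (unadjusted p under 0.05) and by 1.32 ± 0.279 against PC-La (the study's criterion met). Zc3h12a, an RNase that degrades cytokine transcripts, was at 0.71 and 0.84, and Atf3, a repressor of cytokine genes, at 0.77 and 0.53 in the same comparisons. In some fits with 1 sample left out, fewer than 5 of these regulators were higher with an unadjusted p under 0.05. Those fits leave 1 sample in a group, and the counts over all genes tested moved in them too.

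Of 21 cytokines and other targets induced by these receptors, 16 were tested, and Il1a, Il10, Il12a, Il12b and Ifnb1 were below 1 FPKM. In the SePC-La group against Laser 15 of the 16 were higher, 6 of them with an unadjusted p under 0.05, while 59.8% of all genes tested were lower and 4.90% were higher with such a p. The median of the 16 was 0.87 on the log2 scale beside -0.065 over all genes tested. Tnf and Il6 passed the filter of 1 FPKM through groups in which they were high. Mean levels in the Laser, PC-La and SePC-La groups were 0.937, 0.784 and 1.68 FPKM for Tnf and 0.612, 1.23 and 1.41 FPKM for Il6. Their part in the counts and medians of the targets is therefore a description. The neutrophil-attracting chemokine Cxcl1 was at 55.6 and 17.4 FPKM in the Laser samples, 35.0 and 29.1 FPKM in the PC-La samples, and 80.4 and 131 FPKM in the SePC-La samples, a difference of 1.68 ± 0.554 against Laser that met the study's criterion. The chemokines Ccl3 and Ccl4 also met the study's criterion against Laser, at 1.37 and 1.40. In the PC-La group against Laser 10 of the 16 were higher, with a median of 0.09, and only Cxcl10, an interferon-inducible chemokine, met the criterion, at 1.06 ± 0.364. Between the SePC-La and PC-La groups Cxcl2, Cxcl1, Ccl4 and Ccl3 met it, at 2.32, 1.66, 1.28 and 1.24, and 1 gene was lower with an unadjusted p under 0.05, the costimulatory receptor Cd40, at -0.67.

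With all samples, 3 of the 16 targets were higher with an unadjusted p under 0.05 in the PC-La group against Laser, beside 3.38% of all genes tested. Between the SePC-La and PC-La groups 7 were, beside 9.91% of all genes tested. These counts moved when 1 sample was left out, and so did the counts over all genes tested. Such an omission leaves 1 sample in a group, and the cause of the moves was not tested. For many targets Laser replicate 2 lay below Laser replicate 1. In replicates 1 and 2, Cxcl2 was at 31.6 and 6.74 FPKM, Ptgs2 at 64.3 and 20.9 FPKM, and Nos2 at 22.8 and 5.03 FPKM. Tnf and Saa3 went the other way, with Saa3 at 3.49 and 23.3 FPKM. Il1b, the largest difference among the targets against Laser at 2.22 ± 1.06 with an unadjusted p over 0.05, was at 68.2 and 6.36 FPKM in the Laser samples and at 107 and 102 FPKM in the SePC-La samples. The counts in the SePC-La samples stood beside higher sums of the neutrophil and erythroid markers given above, whose part in these counts was not tested.

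**Figure D5:**
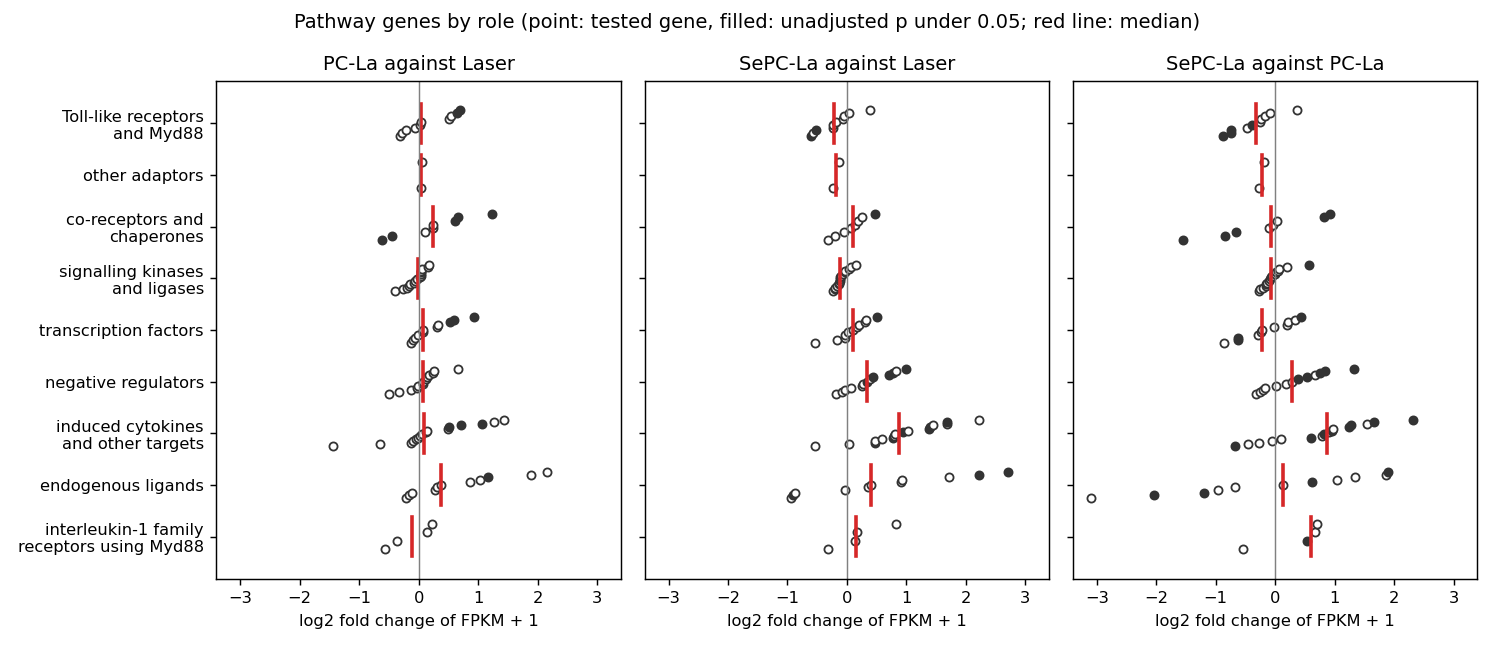
Log2 fold change of FPKM + 1 (horizontal axis) of tested genes of the pathway by role, 1 point a gene, with filled points for an unadjusted p under 0.05 and red lines for the median of each role. The medians of the 10 receptor and Myd88 genes are 0.03, -0.21 and -0.33 in the 3 comparisons, and those of the induced targets are 0.09, 0.87 and 0.86.

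Endogenous ligands, the host molecules that these receptors can sense in damaged tissue, had 11 of 12 genes tested. S100a8 and S100a9, neutrophil proteins that signal through Tlr4, met the study's criterion in the SePC-La group against Laser, at 2.21 ± 0.478 and 2.71 ± 0.963. S100a9 was at 104 and 14.1 FPKM in the Laser samples, 96.8 and 52.5 FPKM in the PC-La samples, and 226 and 300 FPKM in the SePC-La samples. S100a8 also met it against the PC-La group, at 1.90. Of the matrix ligands, Bgn, Dcn and Tnc had no unadjusted p under 0.05 in any comparison. Fn1 (fibronectin) was at 351 and 134 FPKM, 500 and 472 FPKM, and 106 and 130 FPKM in the Laser, PC-La and SePC-La samples, met the criterion in the PC-La group against Laser at 1.16 ± 0.437, and was lower in the SePC-La group against PC-La by -2.04 ± 0.437. Vcan (versican) was lower in the SePC-La group by -0.91 ± 0.232 against Laser and by -1.19 ± 0.232 against PC-La. Both S100 genes are also among the neutrophil markers, and the fibroblast sums given above stood with Fn1 in both comparisons of the PC-La group. Their part in these differences was not tested.

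Myd88 also serves receptors of the interleukin-1 family, of which 4 of 6 genes were tested. Il1rap, the shared accessory chain, was the only one with an unadjusted p under 0.05, higher by 0.54 ± 0.173 in the SePC-La group against PC-La. Il1r1, the signalling receptor for interleukin-1, was at 44.7 and 26.0 FPKM in the Laser samples, 36.9 and 43.0 FPKM in the PC-La samples, and 21.4 and 34.5 FPKM in the SePC-La samples. It was at 0.22, -0.32 and -0.53 in the 3 comparisons, each with an unadjusted p over 0.05 in limma.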

How the data were processed

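RNA from 6 mouse tumor samples had been sequenced from NEBNext Ultra II libraries. The submitters' notes name HISAT2 2.0.5, HTSeq 0.9.1, DESeq 1.30.0 and the genome mm9. The annotation is not given in the sources used here. The authors deposited 1 table of values per gene and sample with no unit named. The deposited values behaved as FPKM: multiplied by GENCODE M21 (GRCm38) exon length, whole reads came out in each sample for 97.891% of expressed genes (tolerance 0.05 reads), with library totals of 14447795 to 17649495. Gene positions are from GENCODE M21 by gene identifier.

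Groups followed the sample titles. The authors' criterion was applied in limma 3.58.1 (R 4.3.3) on log2(FPKM + 1) in place of their count test, with trend and robust estimation, a mean per group, all 6 samples, a minimum mean of 1 FPKM, and Benjamini-Hochberg adjustment. Exact permutation of 2 against 2 samples cannot give a two-sided p below 0.333. Python 3.11.15 with pandas 2.3.3 did the rest. The fit was tested on simulated data. Alternatives were the pseudocount, the filter, 2 scalings, the variance model, the samples fitted, a replicate block, limma voom on recovered reads and the omission of each sample.

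The 10 genes, the gene lists and the tests were chosen with earlier results of these data known. Named were the 10 genes, the genes of each list that met the criterion or differed most, others where a result turned on them, and the genes most like 9 of the 10 (1 such result is not reported here). The 6 lung and tumor genes were looked up after the data were seen.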

Additional observations from a re-analysis of the deposited data

How the results depend on the processing

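Over the 10 genes and 3 comparisons, 243 of 252 log2 fold changes kept their direction and their side of an unadjusted p of 0.05 under the alternatives that kept all samples compared, 4 lost it, 2 gained it and 3 reversed. Reversed were Tlr6 in the PC-La group against Laser (-0.12 with quantile normalization) and, in the SePC-La group against Laser, Tlr9 (0.015 with quantile normalization) and Myd88 (0.012 with median-ratio scaling), all near 0. With 1 sample left out, 88 of 120 kept both, 14 lost the p, 5 gained it and 13 reversed, and the lone sample of a group was then assumed to vary like the others. The reversals lay in Tlr6 (-0.31 to 0.36 over the omissions), Tlr7 (-0.76 to 0.13) and Tlr13 (-0.22 to 0.10) in the PC-La group against Laser, in Tlr1 (-0.39 to 0.47), Tlr2 (-0.57 to 0.18), Tlr9 (-0.22 to 0.091) and Myd88 (-0.19 to 0.089) in the SePC-La group against Laser, and in Tlr13 (-0.39 to 0.050) and Myd88 (-0.24 to 0.047) between the SePC-La and PC-La groups. The cause of these changes was not tested.

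The number of all genes meeting the study's criterion moved from 140 to 68 (a minimum mean of 5 FPKM) and 220 (limma voom) in the PC-La group against Laser, from 74 to 129 (pseudocount 0.1), 46 (minimum 5 FPKM) and 133 (voom) in the SePC-La group against Laser, and from 323 to 488 (pseudocount 0.1) and 186 (minimum 5 FPKM) between the SePC-La and PC-La groups. With 1 sample left out the counts ranged from 71 to 664, from 73 to 253 and from 169 to 584, the highest without Laser replicate 1 in the comparisons with Laser and without SePC-La replicate 2 between the treated groups. Of the 10 genes, 0 met it with the main settings. With voom 1 did in the PC-La group against Laser (Tlr9, 1.06), and 2 did between the SePC-La and PC-La groups with pseudocount 0.1 (Tlr3, -1.18, and Tlr9, -1.10) and with voom (-1.21 and -1.17 for these genes), as did 0 to 1 in the SePC-La group against Laser and 0 to 2 between the treated groups with 1 sample left out. The number of the 10 genes at an unadjusted p under 0.05 moved from 2 to 0, from 2 to 1 and from 4 to 1 with a minimum mean of 5 FPKM, a filter that only 4 of the 10 passed, and ranged over 0 to 5, 1 to 4 and 1 to 3 with 1 sample left out. The median of the 10 genes in the SePC-La group against Laser ranged from -0.43 to -0.030 over these omissions.

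Replicate numbers did not pair the samples: correlations of deviations between same-numbered samples were 0.0862 (Laser and PC-La), -0.428 (Laser and SePC-La) and -0.177 (PC-La and SePC-La). With the replicate block, Tlr2 in the SePC-La group against PC-La was the only one of the 10 genes to cross an unadjusted p of 0.05 (log2 fold change -0.74, adjusted p = 0.281 in limma), the smallest adjusted p of the 10 was 0.233, and the genes meeting the criterion numbered 133, 81 and 285. At 62 to 162 reads a sample, Tlr6 and Tlr9 carried the largest counting error of the 10 genes.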

Other observations

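Levels of some of the 10 genes ran side by side over the 6 samples. Pearson correlations of log2(FPKM + 1) were 0.930 for Tlr2 with Tlr3, 0.852 for Tlr3 with Tlr9, 0.925 for Tlr4 with Tlr7 and 0.905 for Tlr4 with Tlr8, while Tlr6 ran against Tlr7 (-0.845) and Tlr4 (-0.803). The points share 3 groups and the same libraries, so these values describe the 6 samples and carry no p.

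Of the other 10843 tested genes, those most like the receptors over the 6 samples included known leukocyte genes. Tlr3 was closest to Ly86 (r = 0.998), which was also among the accessory genes above. Tlr2 was closest to Keap1 (r = 0.998), a sensor of oxidative stress, and Rbm7, and then to Il2rb (0.994), a receptor chain of lymphocytes. Keap1 hardly varied, at 10.1 to 12.3 FPKM over the 6 samples, where Tlr2 ran from 5.42 to 13.9 FPKM. Tlr8 was closest to Maml3 (0.998), Dync2h1 and Cd33 (0.995), a sialic acid receptor of myeloid cells. Cd33 was at 4.79 and 5.50 FPKM in the Laser samples, 4.20 and 4.24 FPKM in the PC-La samples, and 2.70 and 3.13 FPKM in the SePC-La samples, levels close to those of Tlr8 in every sample. Tlr9 was closest to Primpol (0.992), and Tlr4 to Qser1 (0.998). Tlr7 was closest to Dmxl1 (0.994), which was at 14.6 FPKM in Laser replicate 2 and at 2.49 to 3.85 FPKM in the other 5 samples, so that the likeness follows that sample. Tlr1 was closest to Bex2 (0.995), Tlr13 to Suox (0.991) and Myd88 to Sptssa (0.987). With 6 samples many genes reach such values, and the number with a correlation over 0.95 ran from 17 for Tlr9 to 269 for Tlr2.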
